A study of Oryza sativa with 6 samples.

Results

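Rice carries tandem clusters of genes for non-specific lipid transfer proteins near the starts of chromosomes 11 and 12, and 10 loci of these 2 clusters are described here, out of 55986 loci in the deposited table. They were taken by locus identifier. The 5 on chromosome 11 are LOC_Os11g02369, LOC_Os11g02379, LOC_Os11g02389, LOC_Os11g02400 and LOC_Os11g02424. The 5 on chromosome 12 are LOC_Os12g02290, LOC_Os12g02310, LOC_Os12g02320, LOC_Os12g02330 and LOC_Os12g02340. All 10 passed the filter on low values (a mean of at least 1 RPKM in at least 1 group). RPKM is the number of reads per 1000 bases of gene model and per 1000000 reads of the library, so levels can be set side by side between loci.

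Lipid transfer proteins are small, secreted, cysteine-rich proteins whose fold, held by disulfide bridges, encloses a hydrophobic tunnel that binds fatty acids and other lipids. In plants they are linked to the deposition of cutin and wax on surfaces and to defence against microbes, and in cereal grains they are known as abundant proteins of the aleurone, the outer living layer of the endosperm. The starts of rice chromosomes 11 and 12 are copies of one duplicated segment, so a locus on one chromosome can have a near-identical counterpart on the other.

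The line called rbpl in the labels carries a knockdown of RBP-L, an RNA-binding protein, and was compared with the wild type, the cultivar ZH11 (WT). Each group had 3 biological repeats of dehulled developing seeds, taken 10 to 14 days after flowering from plants grown at 27 °C in days of 12 h light and 12 h dark. The comparison asks which transcripts of the developing grain differ when RBP-L is lowered. Only 1 knockdown line was set against the cultivar, so an effect of RBP-L and one of the line's descent cannot be told apart, and in whole seeds fewer cells of a type and less RNA per cell cannot be told apart either.

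RBP-L itself (LOC_Os04g53440) stood at 15.1, 14.4 and 15.3 RPKM in rbpl seeds, against 62.8, 56.8 and 51.2 RPKM in WT seeds, and was thus lower in each library of the knockdown. The library totals recovered from the RPKM values were 44187374 to 50714582 reads. The library WT-1 stood apart from its group: over 17507 tested loci, a correlation across genes that are no replicates, its log2 levels gave Pearson's r of 0.965 with WT-2 and 0.966 with WT-3, while WT-2 and WT-3 gave 0.995. Results are therefore given with and without WT-1 or library by library. The identifiers are not paired with names in the file, and 0 of them matched the reference table, so markers of endosperm, embryo and leaf were not checked and other lipid transfer protein loci were not counted. How reads that match several copies were counted is not given in the sources used here, and the split of reads among the 10 loci is uncertain for that reason.

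On chromosome 11, 4 of the 5 lipid transfer protein loci rose in rbpl seeds and 1 did not pass the test; 0 fell. At the 4 that rose, WT-2 and WT-3 were lowest and WT-1 lay between them and the rbpl libraries. On chromosome 12, 1 of the 5 rose, 1 fell and 3 did not pass the test. Across all tested loci 3.46% rose and 3.1% fell (limma, adjusted p below 0.05). The median log2 fold change was 2.99 over the chromosome 11 loci, −0.12 over those on chromosome 12 and −0.04 over all tested loci. Without WT-1, 5 of 5 rose on chromosome 11, while 1 rose and 2 fell on chromosome 12, against 8.51% that rose and 9.51% that fell among 17372 tested loci. In that fit LOC_Os11g02379, LOC_Os11g02400 and LOC_Os11g02424 passed the filter only through their rbpl levels. Their means over WT-2 and WT-3 were 0.61, 0.641 and 0.237 RPKM. Their entry into that fit thus depended on the group where they are high.

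**Figure D1:**
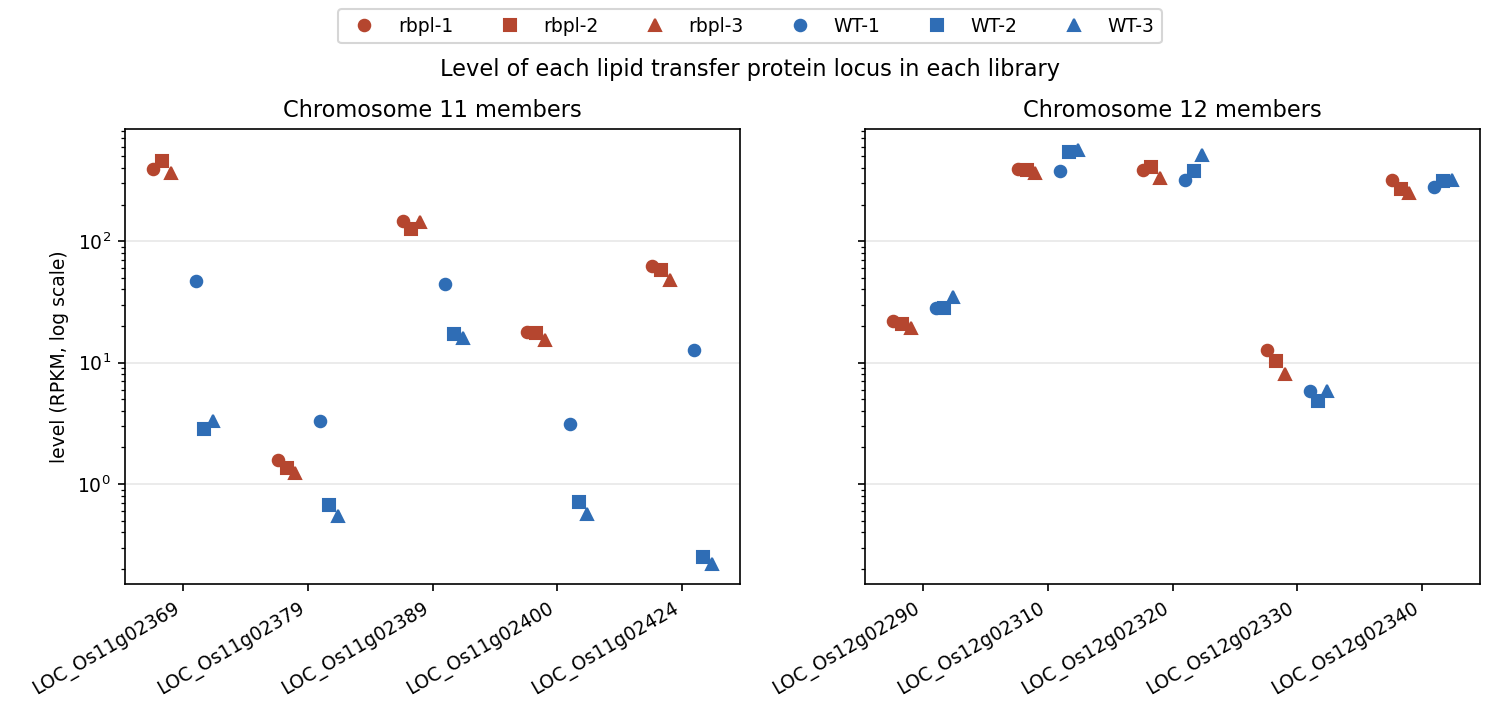
Level of each of the 10 loci in each library, in RPKM on a log axis, with rbpl libraries in red and WT libraries in blue and 1 point per library. On chromosome 11 the WT libraries lie below the rbpl libraries except for WT-1 at LOC_Os11g02379, and WT-1 lies above WT-2 and WT-3 at all 5 loci; on chromosome 12 the groups lie close together.

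LOC_Os11g02369, the first chromosome 11 locus by number, had the largest change of the 10 on the log2(RPKM + 1) scale; by limma-voom on the recovered reads LOC_Os11g02424 exceeded it, with log2 fold changes of 5.95 and 5.71. Its level was 390.4, 453 and 361 RPKM in rbpl-1, rbpl-2 and rbpl-3, against 46.7, 2.85 and 3.31 RPKM in WT-1, WT-2 and WT-3. The rbpl libraries were all far above the WT libraries, and within WT seeds WT-1 was far above the other two. The reads behind these levels numbered 6638, 8111 and 6245 in rbpl seeds, against 785, 45 and 60 in WT seeds. The group means were 402 ± 46.8 RPKM in rbpl seeds and 17.6 ± 25.2 RPKM in WT seeds (SD, n = 3 each), a level 22.8-fold higher in rbpl. The log2 fold change on the log2(RPKM + 1) scale was 5.44 ± 0.86 (SE; limma, adjusted p = 0.0111). WT-1 set much of that error: without it the log2 fold change was 6.62 ± 0.11 (SE; limma, adjusted p = 1.3e-11), and the rbpl mean was 130.2-fold the mean of WT-2 and WT-3. Leaving out any other single library ended the call, with adjusted p from 0.059 without rbpl-3 to 0.107 without WT-2 (limma). Fitting the replicate number as a block ended it too (limma, adjusted p = 0.177). By mean level this locus ranked 226 among the tested loci in rbpl seeds and 4706 in WT seeds, or 12504 by the mean of WT-2 and WT-3.

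LOC_Os11g02424, the last of the chromosome 11 loci, had the next largest change on that scale. It stood at 62.4, 58 and 48 RPKM in the rbpl libraries, against 12.7, 0.253 and 0.221 RPKM in WT-1, WT-2 and WT-3. The groups did not overlap, and WT-2 and WT-3 held only 19 reads each, against 1013 in WT-1 and 3948 to 5046 in the rbpl libraries. The log2 fold change was 4.37 ± 0.84 (SE; limma, adjusted p = 0.0231), and 5.52 ± 0.11 (SE) without WT-1 (limma, adjusted p = 6.5e-11). Its rbpl mean was 237-fold the mean of WT-2 and WT-3, which rests on 19 reads in each of them. Its call was lost when any other single library was left out, with adjusted p from 0.0943 without rbpl-3 to 0.167 without WT-2. It was also lost with a pseudocount of 0.1 (log2 fold change 5.63, adjusted p = 0.0985) and with no filter on low values (adjusted p = 0.0658, all by limma). With the replicate number as a block it was lost as well (limma, adjusted p = 0.182).

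LOC_Os11g02389 kept the highest level of the chromosome 11 loci in WT-2 and WT-3. It had 145, 126 and 143 RPKM in rbpl seeds, against 44.1, 17.2 and 16 RPKM in WT seeds. Every rbpl library lay above every WT library, as at 12.2% of all tested loci. The log2 fold change was 2.53 ± 0.34 (SE; limma, adjusted p = 0.00522), and 2.98 without WT-1 (limma, adjusted p = 1.6e-09). The rise passed the test in each of 13 alternative settings, with adjusted p of at most 0.0457 (limma).

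LOC_Os11g02400, a lower locus, rose as well. Its level was 17.7, 17.4 and 15.3 RPKM in rbpl seeds, against 3.1, 0.713 and 0.569 RPKM in WT seeds. The groups did not overlap, and WT-1 again lay between the rbpl libraries and WT-2 and WT-3. The log2 fold change was 2.99 ± 0.33 (SE; limma, adjusted p = 0.00265), and 3.44 without WT-1 (limma, adjusted p = 1.6e-09). This call too held in all 13 alternatives, at 2.74 to 3.95 on the log2 scale with an adjusted p of 0.0272 or less (limma).

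LOC_Os11g02379 was the exception on chromosome 11. It stood at 1.59, 1.35 and 1.23 RPKM in rbpl seeds, from 112, 100 and 88 reads, against 3.32, 0.673 and 0.546 RPKM in WT seeds, from 231, 44 and 41 reads. The groups overlapped because WT-1 was the highest of the 6 libraries while WT-2 and WT-3 were the lowest. The log2 fold change was 0.09 ± 0.36 (SE; limma, adjusted p = 0.911). Without WT-1 the locus passed the test, with a log2 fold change of 0.57 ± 0.12 (SE; limma, adjusted p = 0.00684). It was in that fit only through its rbpl mean of 1.39 RPKM, since WT-2 and WT-3 averaged 0.61 RPKM, below the filter. Without WT-2 or WT-3 the sign turned, to −0.12 and −0.17.

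The level in WT-1 was compared with those in WT-2 and WT-3 at each of the 10 loci. On the RPKM + 1 scale it was at least 2-fold above both at 5 of 5 chromosome 11 loci, as at 0.851% of all tested loci, and at 0 of 5 chromosome 12 loci. Relative to the mean of WT-2 and WT-3, WT-1 was 53.5-fold higher at LOC_Os11g02424, 15.2-fold at LOC_Os11g02369, 5.44-fold at LOC_Os11g02379, 4.84-fold at LOC_Os11g02400 and 2.66-fold at LOC_Os11g02389. These ratios differ widely among neighbouring loci. On chromosome 12 the same ratio was 0.887 at LOC_Os12g02290, 0.693 at LOC_Os12g02310, 0.709 at LOC_Os12g02320, 1.09 at LOC_Os12g02330 and 0.88 at LOC_Os12g02340. Set against the rbpl mean, WT-1 held 11.6% at LOC_Os11g02369, 18.5% at LOC_Os11g02400, 22.6% at LOC_Os11g02424, 31.9% at LOC_Os11g02389 and 239% at LOC_Os11g02379. The part of this library's difference in the group results was not tested beyond leaving it out.

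On chromosome 12, LOC_Os12g02330 rose and LOC_Os12g02290 fell, both at modest levels. LOC_Os12g02330 had 12.8, 10.3 and 8.1 RPKM in rbpl seeds, against 5.8, 4.81 and 5.84 RPKM in WT seeds. Its groups did not overlap, and the fitted log2 fold change was 0.79 ± 0.16 (SE; limma, adjusted p = 0.0274). LOC_Os12g02290 had 21.9, 20.8 and 19.2 RPKM in rbpl seeds, against 28, 28.2 and 35 RPKM in WT seeds. Its groups did not overlap either, with every rbpl library below every WT library as at 17.9% of all tested loci, and the log2 fold change was −0.53 ± 0.12 (SE; limma, adjusted p = 0.0389).

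Both calls rest on most of the libraries together. Without WT-1 they held, at log2 fold changes of 0.83 for LOC_Os12g02330 (adjusted p = 0.00677) and −0.59 for LOC_Os12g02290 (adjusted p = 0.00288, limma). The call of LOC_Os12g02330 was lost without WT-2, WT-3, rbpl-1 or rbpl-2, with adjusted p from 0.0643 to 0.113 (limma). That of LOC_Os12g02290 was lost without any single library other than WT-1, with adjusted p from 0.0685 to 0.157 (limma), and with median-of-ratios scaling (adjusted p = 0.0813). With no filter on low values neither passed (adjusted p = 0.0684 and 0.0775). With the replicate number as a block the call of LOC_Os12g02290 was lost too (limma, adjusted p = 0.0793), while that of LOC_Os12g02330 held (limma, adjusted p = 0.023).

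The 3 abundant chromosome 12 loci did not pass the test in either direction. LOC_Os12g02310 had 392, 388 and 362 RPKM in rbpl seeds, against 380.5, 537 and 560.2 RPKM in WT seeds. WT-2 and WT-3 lay above all rbpl libraries and WT-1 lay among them. The log2 fold change was −0.35 ± 0.16 (SE; limma, adjusted p = 0.25), and −0.53 ± 0.08 (SE) without WT-1 (limma, adjusted p = 0.00119), so that this locus fell once WT-1 was left out.

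LOC_Os12g02320 had 388, 409 and 333 RPKM in rbpl seeds, against 316, 378 and 513 RPKM in WT seeds. The ranges overlapped, and the log2 fold change was −0.07 ± 0.18 (SE; limma, adjusted p = 0.863), −0.23 without WT-1 (adjusted p = 0.287). LOC_Os12g02340 had 320.3, 269 and 248 RPKM in rbpl seeds, against 277, 310.4 and 318 RPKM in WT seeds. It overlapped too, with a log2 fold change of −0.12 ± 0.13 (SE; limma, adjusted p = 0.645), −0.18 without WT-1 (adjusted p = 0.286).

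The order of the 10 levels differed between the groups. In rbpl seeds LOC_Os11g02369 (402 RPKM), LOC_Os12g02310 (380.3 RPKM) and LOC_Os12g02320 (377 RPKM) came first and overlapped in their ranges over libraries. LOC_Os12g02340 (279 RPKM), LOC_Os11g02389 (138 RPKM), LOC_Os11g02424 (56.1 RPKM), LOC_Os12g02290 (20.6 RPKM), LOC_Os11g02400 (16.8 RPKM), LOC_Os12g02330 (10.4 RPKM) and LOC_Os11g02379 (1.39 RPKM) followed, each apart from the next. This order holds for RPKM and not for reads. LOC_Os12g02340, a model of 903 bp, held 10838 to 13778 reads in the rbpl libraries. LOC_Os11g02369, of 357 bp, held 6245 to 8111. In WT seeds the top 3 were all on chromosome 12, LOC_Os12g02310 (493 RPKM), LOC_Os12g02320 (402 RPKM) and LOC_Os12g02340 (302 RPKM), with overlapping neighbours. LOC_Os12g02290 (30.4 RPKM) led the other 7 WT levels, in which every neighbouring pair overlapped, in part because WT-1 widened the ranges on chromosome 11.

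Summed over its 5 loci, the chromosome 11 cluster was far higher in rbpl seeds than in WT seeds, while the chromosome 12 cluster had overlapping groups. The chromosome 11 sum was 617, 656 and 569 RPKM in the rbpl libraries, against 109.9, 21.7 and 20.7 RPKM in the libraries WT-1, WT-2 and WT-3. Its means were 614 ± 43.7 RPKM in rbpl seeds and 50.8 ± 51.2 RPKM in WT seeds (SD, n = 3 each), a ratio of 12.1, or 29 with WT-1 left out. Without LOC_Os11g02369, its locus with the highest mean, the cluster had 213 ± 12.8 RPKM in rbpl seeds and 33.1 ± 26.1 RPKM in WT seeds (SD, n = 3 each), a ratio of 6.42. The chromosome 12 sum was 1135, 1096 and 970.1 RPKM in rbpl seeds, against 1007, 1258 and 1432 RPKM in WT seeds. Its means were 1067 ± 86.1 RPKM in rbpl seeds and 1232 ± 214 RPKM in WT seeds (SD, n = 3 each), a ratio of 0.866, or 0.793 without WT-1. WT-1, with the highest chromosome 11 sum of the WT libraries, had their lowest chromosome 12 sum.

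Taken over all 10 loci, the sum was 1752, 1753 and 1539 RPKM in rbpl seeds, against 1117, 1280.2 and 1453 RPKM in WT seeds. The groups did not overlap, although rbpl-3 and WT-3 lay close. The means were 1681 ± 123 RPKM in rbpl seeds and 1283 ± 168 RPKM in WT seeds (SD, n = 3 each), a ratio of 1.31, or 1.23 without WT-1. The ratio of the 10 loci together was thus far smaller than the ratio of 12.1 for chromosome 11 alone. The difference of the means, rbpl minus WT, was 563 RPKM on chromosome 11 and −165 RPKM on chromosome 12. No test is given for these sums, since the loci were chosen with results of these data known.

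**Figure D2:**
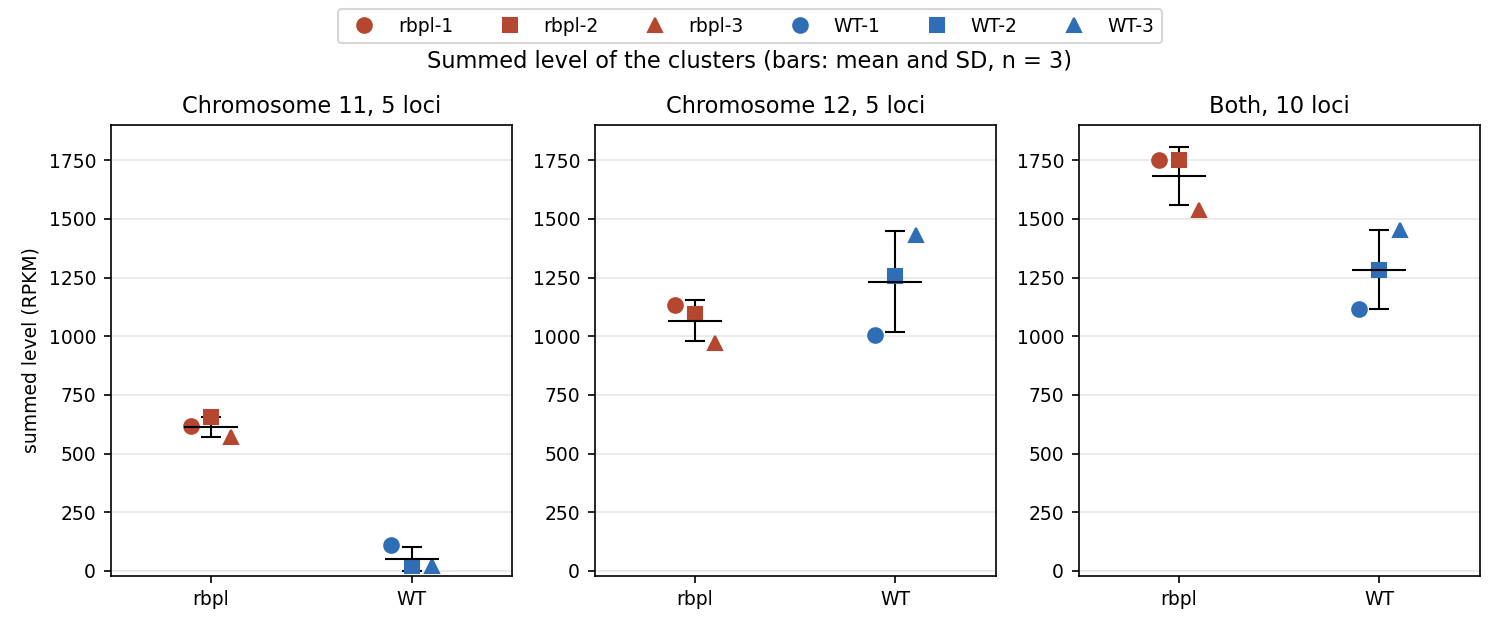
Summed RPKM of the chromosome 11 loci, the chromosome 12 loci and all 10, with 1 point per library (rbpl in red, WT in blue) and black bars for the mean and SD of 3 libraries, on axes that include 0. The rbpl and WT libraries lie far apart on chromosome 11 (means of 614 and 50.8 RPKM), overlap on chromosome 12, and do not overlap for the sum of both (means of 1681 and 1283 RPKM).

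The gap in the joint sum depended on how loci were weighted and which were included. Without the highest locus of each cluster, LOC_Os11g02369 and LOC_Os12g02310, the groups overlapped and the ratio of the means was 1.16. The recovered gene models of LOC_Os11g02369 and LOC_Os12g02320 are 357 and 351 bp long, against 799 to 1698 bp for the other 8 loci, so a read there adds more RPKM. Counted as reads per 1000000 reads of the library (RPM), without regard to length, the 10 loci held 1332, 1283 and 1163 RPM in rbpl seeds, against 951, 1132 and 1222 RPM in WT seeds. These groups overlapped, and the ratio of the means was 1.14, or 1.07 without WT-1. LOC_Os12g02300, which is not among the 10, lies inside the chromosome 12 cluster by number, and the file does not say what it encodes. Its level was 585, 490 and 449 RPKM in rbpl seeds, against 754, 851 and 971 RPKM in WT seeds, higher than any of the 10 in each library, and it fell with a log2 fold change of −0.76 (standard error 0.15; limma, adjusted p = 0.023), or −0.85 without WT-1 (adjusted p = 0.000505). With every locus inside both spans added, the joint sum averaged 2189.7 ± 181 RPKM in rbpl seeds and 2142 ± 277 RPKM in WT seeds (SD, n = 3 each), with overlapping groups and a ratio of 1.02, which turned to 0.961 without WT-1.

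LOC_Os11g02350, the tested locus just before the chromosome 11 cluster and likewise without a name in the file, stood at 575, 478 and 447 RPKM in rbpl seeds, against 173, 5.65 and 4.56 RPKM in WT seeds. The groups did not overlap, yet the log2 fold change of 4.74 (standard error 1.23) did not pass the test with WT-1 included (limma, adjusted p = 0.0725); without WT-1 it was 6.36 ± 0.12 (SE) and passed. With both LOC_Os11g02350 and LOC_Os12g02300 added to the 10, the joint sum was 2913, 2720.5 and 2434 RPKM in rbpl seeds, against 2044, 2137 and 2428 RPKM in WT seeds. The groups were then just apart, at a ratio of 1.22, or 1.18 without WT-1. The sums with these 2 loci were chosen after their levels were seen.

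The chromosome 11 cluster made up 35.2%, 37.4% and 37% of the joint RPKM in rbpl-1, rbpl-2 and rbpl-3, against 9.84%, 1.69% and 1.42% in WT-1, WT-2 and WT-3. The rbpl libraries agreed closely with each other, while WT-1 stood between them and the other WT libraries. The means were 36.5 ± 1.16% in rbpl seeds and 4.32 ± 4.79% in WT seeds (SD, n = 3 each). These shares rest on 16653 to 19213 chromosome 11 reads per library in rbpl seeds and on 3855, 751 and 802 in WT-1, WT-2 and WT-3.

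The make-up of the chromosome 11 cluster also differed between the groups. LOC_Os11g02369 made up 65.3 ± 3.27% of its summed RPKM in rbpl seeds and 23.9 ± 16.2% in WT seeds (SD, n = 3 each), where WT-1 stood at 42.5%, WT-2 at 13.2% and WT-3 at 16%. LOC_Os11g02389 made up 22.6 ± 3.03% in rbpl seeds and 65.6 ± 22.1% in WT seeds, where WT-1 stood at 40.1% and the other libraries at 79.3% and 77.5% (SD, n = 3 each). Neither share overlapped between the groups. These shares depend on model length, 357 bp at LOC_Os11g02369 and 799 bp at LOC_Os11g02389. In reads the lead in rbpl seeds was smaller, with 6638, 8111 and 6245 at LOC_Os11g02369, against 5534, 5065 and 5527 at LOC_Os11g02389. LOC_Os11g02400 held a similar share throughout, 2.65% to 2.86% in the rbpl libraries and 2.75% to 3.29% in the WT libraries. LOC_Os11g02424 held 10.1%, 8.84% and 8.44% in rbpl seeds, against 11.5% in WT-1 and 1.17% and 1.07% in WT-2 and WT-3, so that for this locus WT-1 was the only WT library near the rbpl values. LOC_Os11g02379 held 0.257%, 0.205% and 0.216% in rbpl seeds, against 3.02%, 3.1% and 2.64% in WT-1, WT-2 and WT-3. Its share did not overlap between the groups, and WT-1 lay among the WT libraries.

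In the chromosome 12 cluster the same 3 loci made up most of the summed RPKM in each of the 6 libraries. LOC_Os12g02310 made up 35.7 ± 1.42% in rbpl seeds and 39.9 ± 2.54% in WT seeds, LOC_Os12g02320 35.3 ± 1.75% in rbpl seeds and 32.4 ± 3.03% in WT seeds, and LOC_Os12g02340 26.1 ± 1.93% in rbpl seeds and 24.8 ± 2.63% in WT seeds (SD, n = 3 each). The shares of LOC_Os12g02320 and LOC_Os12g02340 overlapped between the groups, and that of LOC_Os12g02310 was lower in each rbpl library than in each WT library. The small shares did not overlap either: LOC_Os12g02330 made up 0.966 ± 0.148% in rbpl seeds and 0.455 ± 0.106% in WT seeds, and LOC_Os12g02290 1.94 ± 0.0433% in rbpl seeds and 2.49 ± 0.274% in WT seeds (SD, n = 3 each).

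**Figure D3:**
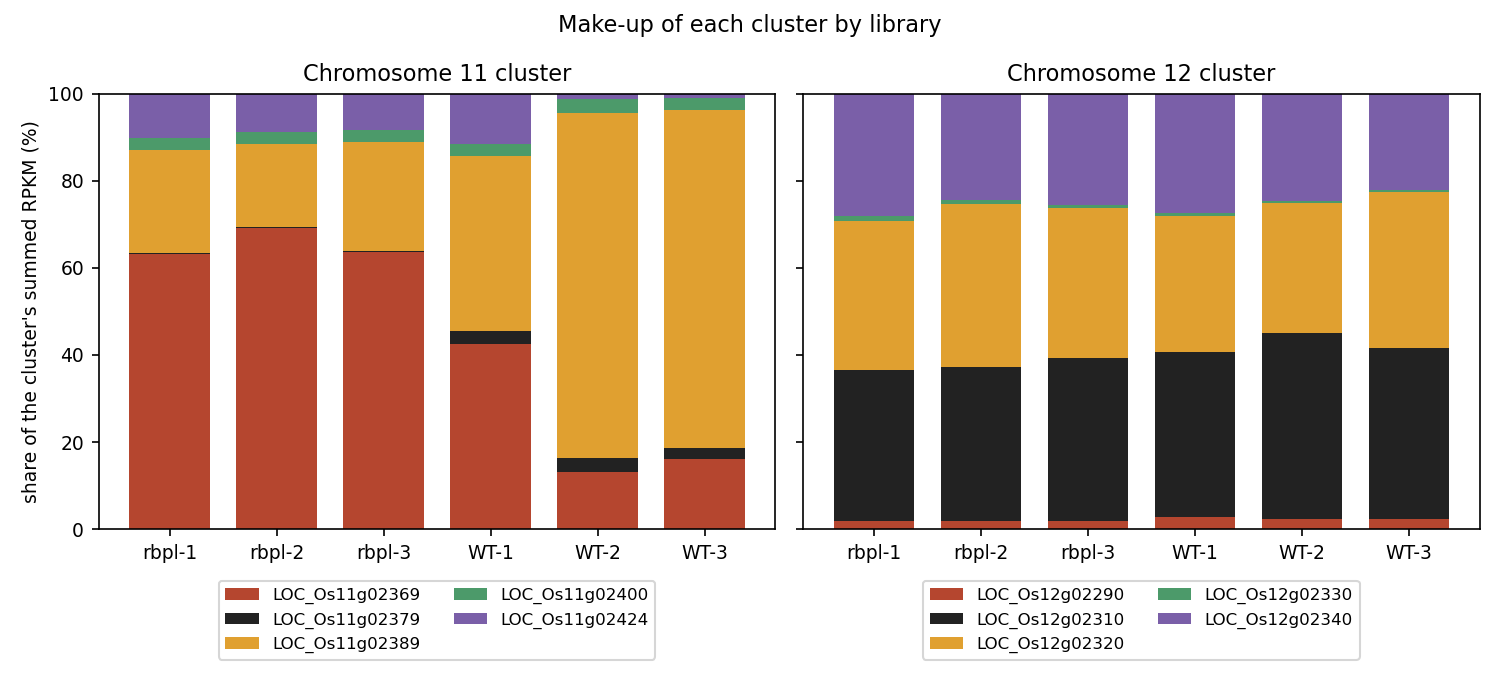
Share of each locus in the summed RPKM of its cluster, in percent, as stacked bars for each library (rbpl libraries left, WT libraries right). On chromosome 11, LOC_Os11g02369 (65.3% on average in rbpl) gives way to LOC_Os11g02389 in WT-2 and WT-3 (79.3% and 77.5%) with WT-1 in between, while on chromosome 12 LOC_Os12g02310, LOC_Os12g02320 and LOC_Os12g02340 fill most of every bar.

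Loci at the same place in the 2 clusters, counted in order of locus number, were also summed as pairs. Place alone does not show which copies correspond, and the model lengths within a pair differed, for example 357 and 1036 bp at the first place. The first pair, LOC_Os11g02369 with LOC_Os12g02290, had 412, 474 and 381 RPKM in rbpl seeds, against 74.7, 31.1 and 38.3 RPKM in WT seeds. The fourth pair, LOC_Os11g02400 with LOC_Os12g02330, had 30.5, 27.6 and 23.4 RPKM in rbpl seeds, against 8.91, 5.52 and 6.41 RPKM in WT seeds. In these pairs the groups did not overlap, and in the fourth both loci rose. The other 3 pair sums overlapped between the groups, with ratios of rbpl over WT means of 0.772 for LOC_Os11g02379 with LOC_Os12g02310, 1.2 for LOC_Os11g02389 with LOC_Os12g02320 and 1.09 for LOC_Os11g02424 with LOC_Os12g02340.

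The 10 nearest tested loci on each side of each cluster were set beside the lipid transfer protein loci. Across all tested loci 3.46% rose and 3.1% fell. On chromosome 11, 15 of these 20 neighbours rose and 0 fell, and their log2 fold changes ran from 0.53 to 4.74 around a median of 1.73. The 5 lipid transfer protein loci there had a median of 2.99. On chromosome 12, 0 of the 20 neighbours rose and 14 fell, with a median of −0.78 and a range from −1.13 to −0.11. The lipid transfer protein loci there had a median of −0.12, and LOC_Os12g02330 was the only one of these 25 loci with a log2 fold change above 0. Without WT-1, 20 of 20 neighbours rose on chromosome 11 and 18 of 20 fell on chromosome 12. Among all loci tested without WT-1, 8.51% rose and 9.51% fell. Whether the clusters differ from their neighbours was not tested.

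**Figure D4:**
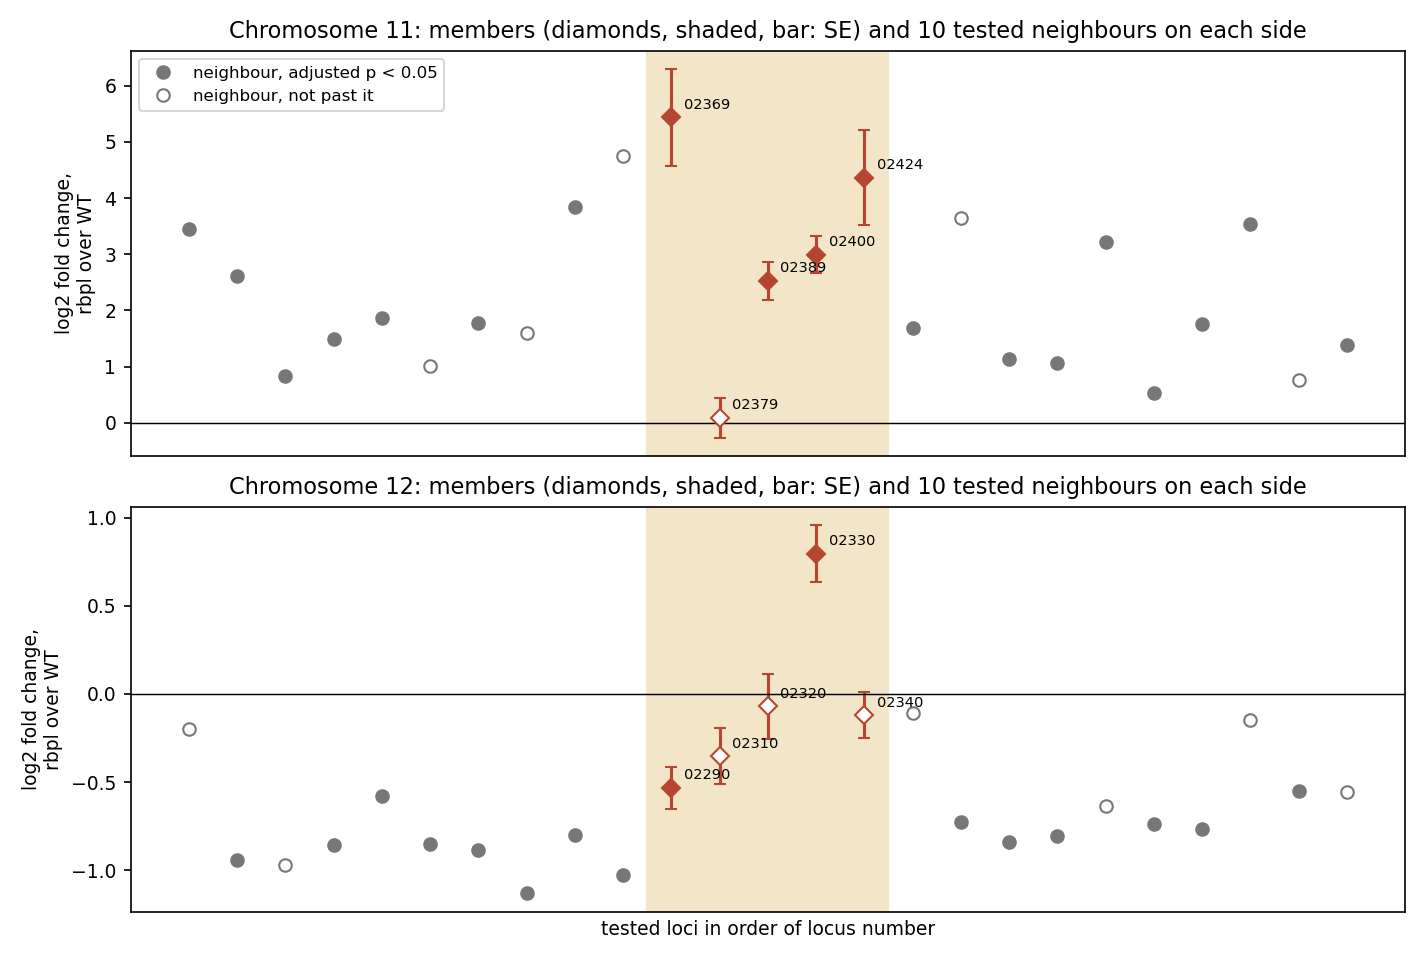
Log2 fold change, rbpl over WT on the log2(RPKM + 1) scale, of the members (diamonds with standard error, shaded) and of 10 tested neighbours on each side (circles) in order of locus number; filled symbols have an adjusted p below 0.05 by limma, and LOC_Os12g02300 is left out. Neighbours are all above 0 on chromosome 11 (median 1.73) and all below 0 on chromosome 12 (median −0.78), while LOC_Os11g02379 lies near 0 and LOC_Os12g02330 lies at 0.79.

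Among 7024 other tested loci with a mean of at least 10 RPKM, LOC_Os04g43160 and LOC_Os01g71474 had the levels most like the chromosome 11 sum over the 6 libraries, with Pearson's r of 0.999 and 0.997 between log2 values. LOC_Os04g43160 had 22.8, 22.1 and 22.5 RPKM in rbpl seeds, against 16.2, 11.8 and 11.5 RPKM in WT seeds, a far smaller difference than that of the cluster. LOC_Os01g71474 had 23, 24.8 and 22.8 RPKM in rbpl seeds, against 5.35, 0.501 and 0.942 RPKM in WT seeds. Most like the chromosome 12 sum were LOC_Os02g55610 (r = 0.993) and LOC_Os05g35230 (r = 0.973). With 6 libraries in 2 groups such values are a description, and what these loci encode is not given in the file.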

How the data were processed

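The authors deposited 1 table of RPKM values per locus for 6 libraries, per the file headers; libraries were made from total RNA with a NEBNext Ultra RNA kit, per the labels' protocols. For the aligner, read counter, build and annotation, the sources used here name none. The 10 loci and the lists used were chosen with earlier results of these data known, and all 10 were named by that rule, with RBP-L and the 2 loci most like each cluster.

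Levels were tested with limma 3.58.1 in R 4.3.3 (trended, robust, without covariates) applied to log2(RPKM + 1), two-sided, over 17507 loci with a mean of at least 1 RPKM in at least 1 group, with Benjamini-Hochberg adjustment over all of them. Fold changes on this scale, rbpl minus WT, understate those of low loci. Whole reads, model lengths and library totals were recovered from the steps of the RPKM values (100% of 32287 loci above 0 gave whole reads within 0.001 reads); where the counts of a locus share a divisor, they come out too small by it. Replicates of a group differed by more than sampling noise (chi-square per degree of freedom of at least 15.8). The labels call them biological repeats. Read numbers cover counting error only. The limma and read-recovery steps were also run on simulated data, but the outcome is not given here and no support is drawn from it. No simulated library stood apart as WT-1 does, so the limma calls were not tested under that spread. Sums and plots were made in Python 3.11.15 (numpy 2.4.6, pandas 2.3.3, matplotlib 3.10.9). No sequence is printed, since no identifier matched the reference table of 39387 genes.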

Additional observations from a re-analysis of the deposited data

How the results depend on the processing

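Leaving out 1 library gave 2 to 5 chromosome 11 loci that rose. On chromosome 12 it gave 0 to 1 that rose and 0 to 2 that fell. Of all tested loci, 3.46% rose and 3.1% fell in the main fit, and 8.51% and 9.51% without WT-1 (limma, adjusted p below 0.05). For the other settings no such share is given, so the counts there cannot be set against all tested loci. The joint log2 ratio of summed RPKM ran from 0.30 to 0.49 when 1 library was left out. With no filter 0 chromosome 12 loci rose and 0 fell, and with median-of-ratios scaling 0 fell and 1 rose. With every locus in the spans, an alternative chosen after seeing the data, the joint log2 ratio was 0.032, against 0.39. Without the highest locus of each cluster the log2 ratio was 2.68 for chromosome 11, against 3.60, and 0.22 for the joint sum. Signs turned at LOC_Os11g02379 (−0.12 without WT-2, −0.17 without WT-3, 0.57 without WT-1) and at LOC_Os12g02320 (0.12 without WT-3, 0.016 without rbpl-3, −0.23 without WT-1), with a call only at LOC_Os11g02379 without WT-1. RBP-L stayed past the threshold in all 13 alternatives. With a filter at 5 RPKM, LOC_Os11g02379 was not tested. For these changes the cause was not tested.

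Same-numbered libraries deviated from their group means with correlations of 0.0476, 0.259 and −0.38. WT-1 shifts the WT mean, and libraries of unlike number were not compared, so these values cannot decide whether the numbers pair libraries. With the replicate number as a block, 2 chromosome 11 loci rose, and on chromosome 12, 1 rose and 0 fell. The share of all tested loci called with this block is not given, so these counts cannot be set against it. Depth limits the WT levels on chromosome 11, where LOC_Os11g02424 rests on 19 reads in WT-2 and WT-3.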
